A study of Mus musculus with 4 samples.

Results

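Killer lectin-like receptors and the small adaptors that carry their signals were followed in T cells isolated from mouse tumours. The set was a list of 10 gene names, looked up among the 21146 genes of the deposited table without a threshold on any value. It held 8 receptor genes (Klrb1c, Klrd1, Klrc1, Klrc2, Klre1, Klrk1, Klrg1 and Klra7) and 2 adaptor genes (Fcer1g and Tyrobp), and all 10 had a row in the table. RNA sequencing compared 2 libraries from mice labelled HPK1-/-, a knockout of the kinase gene Map4k1, with 2 libraries from wild-type mice, all on the C57BL/6 background. Every library came from tumour-infiltrating T cells taken 21 days after tumour inoculation. The tumour, the sorting gate, the knockout allele, the age of the mice and the number of mice per library were not given in the labels, so the p-values cover only variation among these 4 libraries, and that variation could be technical.

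Receptors of this family are C-type lectin-like proteins first known from natural killer (NK) cells, and activated CD8 T cells, NKT cells and gamma delta T cells also carry them. Inhibitory members hold a tyrosine motif (ITIM) in their own tail and recruit phosphatases. Activating members have short tails and pair in the membrane with adaptors. FcR gamma (Fcer1g) and DAP12 (Tyrobp) carry an immunoreceptor tyrosine-based activation motif (ITAM), which docks the kinases Syk and ZAP-70 once phosphorylated. DAP10 (Hcst) instead carries a motif that engages phosphoinositide 3-kinase. HPK1, the product of Map4k1, is a blood-cell kinase that restrains T cell receptor signalling, and the comparison asks which transcripts differ in tumour T cells of the knockout.

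Values were FPKM, fragment numbers corrected for transcript length and library depth, as the authors deposited them, so levels of different genes are comparable per length. Map4k1 itself was at 20.6 and 26.5 FPKM in the knockout libraries, against 48.9 and 41.1 FPKM in the wild-type libraries, so transcript was reduced but not absent (limma adjusted p = 0.0134, and 0.0634 without knockout replicate 1). FPKM totals were 871584 and 878585 in the knockout libraries and 975047 and 975107 in the wild-type libraries. The steps between low values placed the libraries on a scale of about 20200000 to 23150000 fragments, on which 1 fragment in a 2-kb transcript was worth 0.0248 to 0.0285 FPKM. Of T cell markers, all 16 were tested, 2 fell (Cd3d and Trbc2), 4 rose (Cd2, Cd5, Trac and Lck, none of them past the threshold without knockout replicate 1, or without knockout replicate 2) and 10 did not pass, with summed levels of 3871 and 3851 FPKM in knockout and 4072 and 3869 FPKM in wild type. Cd3e was at 148 and 142 FPKM in knockout and 149 and 153 FPKM in wild type (limma adjusted p = 0.594), and Cd8a at 184 and 189 FPKM in knockout and 208 and 212 FPKM in wild type (limma adjusted p = 0.13).

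The receptor genes other than Klrg1 lie in the natural killer gene complex of chromosome 6, where Klrd1, Klrk1, Klrc2 and Klrc1 are close neighbours, while Klrg1 lies elsewhere on the same chromosome, Fcer1g on chromosome 1 and Tyrobp on chromosome 7. The 250 bases before a RefSeq start are shown for Fcer1g, Klrb1c and Klrc1, which fell, and for Klrk1, which did not pass. They were chosen because they lie beside RefSeq starts of genes whose levels are compared here. They are from RefSeq on GRCm38.p6, read 5′ to 3′ on the gene's own strand, and capitals mark the core letters bound by RUNX transcription factors (TGTGGT, or ACCACA where the match is on the other strand).
Fcer1g, chr1:171234350-171234599, minus strand: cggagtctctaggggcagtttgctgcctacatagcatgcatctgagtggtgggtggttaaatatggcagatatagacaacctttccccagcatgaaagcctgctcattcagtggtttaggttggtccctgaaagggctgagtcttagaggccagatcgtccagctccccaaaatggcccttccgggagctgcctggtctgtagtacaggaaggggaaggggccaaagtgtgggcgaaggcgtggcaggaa
Klrb1c, chr6:128788642-128788891, minus strand: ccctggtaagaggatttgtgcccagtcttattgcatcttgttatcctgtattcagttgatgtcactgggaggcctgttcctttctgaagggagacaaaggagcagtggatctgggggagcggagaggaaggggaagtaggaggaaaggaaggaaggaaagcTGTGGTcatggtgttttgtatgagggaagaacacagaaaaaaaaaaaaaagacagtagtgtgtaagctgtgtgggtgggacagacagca
Klrc1, chr6:129678974-129679223, minus strand: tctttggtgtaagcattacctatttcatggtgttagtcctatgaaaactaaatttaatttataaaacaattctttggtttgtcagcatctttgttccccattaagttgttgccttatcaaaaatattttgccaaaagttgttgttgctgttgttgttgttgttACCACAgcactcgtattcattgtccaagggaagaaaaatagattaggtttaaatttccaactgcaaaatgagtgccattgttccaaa
Klrk1, chr6:129623865-129624114, minus strand: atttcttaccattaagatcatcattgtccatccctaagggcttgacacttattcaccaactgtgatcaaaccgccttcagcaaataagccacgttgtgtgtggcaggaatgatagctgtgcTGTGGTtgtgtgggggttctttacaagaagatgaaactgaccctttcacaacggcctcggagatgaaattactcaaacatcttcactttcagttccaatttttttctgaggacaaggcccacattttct

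The RefSeq promoter table held 7 of the 10 genes, and Klrd1, Klrg1 and Tyrobp are named only. TGTGGT, on either strand, was in a window of 5 of the 7 (Klrb1c, Klrc1, Klrc2, Klre1 and Klrk1). Because Klrc2, Klre1 and Klra7 have more than 1 window, the 7 genes gave 10 windows, of which 6 held it. Of all 32851 windows of that length, 14.0% held it. The windows of Klrc2 overlap each other and share their matches. Its first base lay 89 bases before the RefSeq start in Klrb1c, 87 in Klrc1 and 129 in Klrk1. The Klrb1c and Klre1 windows lie wholly inside the GENCODE spans of these genes, so there the letters are not upstream of the GENCODE start. Klra7 also has a window inside its span, and the windows of Klrc2 and Fcer1g overlap theirs in part. These letters were picked after the sequences had been read, so the count is a description. The T-box letters TCACACC and the AP-1 letters TGACTCA or TGAGTCA were in none of the 7, against 3.3% and 4.5% of all windows. The NFAT core GGAAAA was in Klra7 and Klrc2, in 3 of the 10 windows (20.4% of all windows), and the ETS core CCGGAAG in Fcer1g, in 1 of the 10 (6.9%). A match is only a run of letters, and no binding was measured. Runx3, which encodes the RUNX factor of the CD8 lineage, was at 61.6 and 57.9 FPKM in knockout and 67.3 and 56.6 FPKM in wild type (limma adjusted p = 0.765).

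Transcripts of most of the 10 genes were lower in the knockout libraries, and none was called higher. Both adaptors, Fcer1g and Tyrobp, fell, as did the receptor genes Klrb1c, Klrd1, Klrc1 and Klra7. Klrk1, which encodes NKG2D, and Klre1 did not pass the test, and Klrg1 and Klrc2 were too low to enter it. A gene was tested when it reached 1 FPKM in at least 2 of the 4 libraries, which held for 8 of the 10. Of these 8, 6 fell and 0 rose, where 13.0% of the 11947 tested genes were called lower and 15.4% higher, 28.4% in all (limma on log2(FPKM + 1), Benjamini-Hochberg adjusted p below 0.05). These shares came from 1551 lower and 1839 higher genes, which were 1118 lower and 3475 higher when libraries were scaled to equal FPKM totals, where 5 members fell and 0 rose. The count fell to 3 (Fcer1g, Klrb1c and Klrd1) without wild-type replicate 2 and likewise without knockout replicate 1, and was 5 without either of the other libraries. For 9 of the 10 genes both knockout values lay below both wild-type values, and Klre1 was the exception. Of the 8 tested members, 7 were separated in this way. Such a separation with knockout lower was seen for 31.4% of all tested genes, and a separation in either direction for 70.0%. The median log2 fold change was -1.20 over the 8 tested members and 0.04 over all tested genes. The 10 genes were listed with earlier results of these data known, so setting them against all genes is only a description. Because the cells were measured in bulk, fewer cells carrying a receptor and less RNA per cell cannot be told apart.

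**Figure D1:**
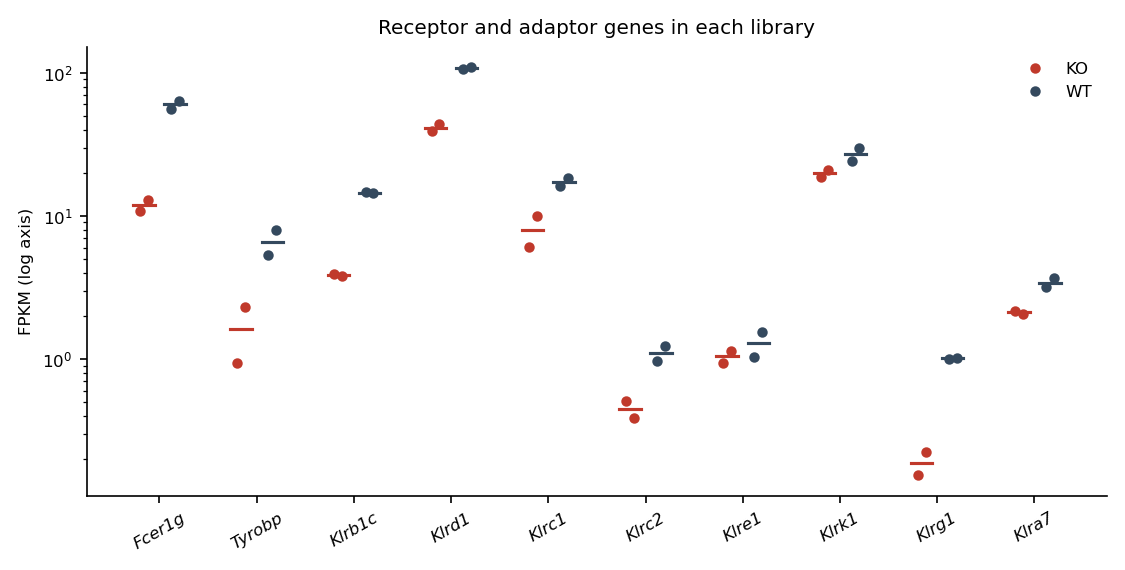
FPKM (log axis) of the 8 receptor and 2 adaptor genes in each library, with knockout (KO) left of wild type (WT), points for libraries and lines for the mean of 2 libraries. Knockout points lie below wild-type points for 9 of the 10 genes, and overlap them for Klre1.

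The summed level of the 10 genes was 83.3 and 97.4 FPKM in the knockout libraries, against 228 and 251 FPKM in the wild-type libraries. Klrd1 was the most abundant of them in both genotypes and made up 46.9% and 44.6% of the sum in knockout and 46.3% and 43.4% in wild type. Its share was thus alike in the 4 libraries. Fcer1g made up 13.0% and 13.4% of the sum in knockout but 24.6% and 25.4% in wild type. By mean level the order in knockout was Klrd1, Klrk1, Fcer1g, Klrc1, Klrb1c, Klra7, Tyrobp, Klre1, Klrc2 and Klrg1. In wild type Fcer1g stood above Klrk1 and Tyrobp above Klra7, and the order was otherwise the same. Neighbours whose library values overlapped were Tyrobp with Klra7 and with Klre1 in knockout, and, in wild type, Klrc2 with Klre1 and with Klrg1.

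Fcer1g, the gene for the FcR gamma chain shared by Fc receptors, NK1.1 and other activating receptors, showed the deepest change among the tested members. The gene spans chr1:171229572-171234365 on the minus strand (GRCm38). It was at 10.9 and 13.0 FPKM in the knockout libraries and at 56.2 and 63.8 FPKM in the wild-type libraries. The libraries of a genotype were close together and the genotypes far apart. Its log2 fold change was -2.24 (SE 0.12, limma adjusted p = 0.000951), a 5.02-fold lower mean, and 0.477% of all tested genes had a more negative one. The call held in all 16 alternatives tried, with adjusted p up to 0.0323. FcR gamma can take the place of the zeta chain (Cd247) in some T cell receptor complexes. Cd247 was at 195 and 177 FPKM in knockout and 148 and 156 FPKM in wild type and did not pass (limma adjusted p = 0.0566). Both knockout values were higher, and Cd247 passed as higher with equal FPKM totals (log2 fold change 0.45, limma adjusted p = 0.0145). The ratio of Fcer1g to Cd247 was 0.0558 and 0.0737 in knockout and 0.379 and 0.41 in wild type, a within-library ratio that no scaling of libraries alters.

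Tyrobp, the gene for DAP12, the adaptor of NKG2C and of activating Ly49 receptors, was at 0.938 and 2.33 FPKM in the knockout libraries and at 5.30 and 7.92 FPKM in the wild-type libraries. Its position is chr7:30413760-30417585 on the plus strand (GRCm38). The libraries of each genotype differed widely, but the genotypes did not overlap. The log2 fold change was -1.56 (SE 0.31, limma adjusted p = 0.0209). The call was lost without knockout replicate 1 (adjusted p = 0.0625), without wild-type replicate 2 (0.0668) and when low genes were not filtered (0.108). In the length of its longest transcript these values correspond to about 7.1 and 18.2 fragments in knockout and 38.6 and 53.9 in wild type, so counting error is large. The ratio of Fcer1g to Tyrobp was 11.6 and 5.59 in knockout and 10.6 and 8.05 in wild type, and overlapped between genotypes.

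Most other transmembrane signalling adaptors did not pass the test. Hcst, which encodes DAP10, the partner of NKG2D, was at 88.7 and 99.7 FPKM in knockout and 111 and 104 FPKM in wild type, and did not pass (log2 fold change -0.19, SE 0.09, limma adjusted p = 0.176). The ratio of Tyrobp to Hcst was 0.0106 and 0.0234 in knockout and 0.0478 and 0.0763 in wild type. Of the 6 tested genes of that list, which also holds the CD3 chains, 1 fell and 0 rose, with a median log2 fold change of -0.12. The gene that fell was Cd3d, at 171 and 177 FPKM in knockout and 226 and 224 FPKM in wild type (log2 fold change -0.37, SE 0.07, limma adjusted p = 0.0201). Its adjusted p was 0.174 without knockout replicate 1, 0.115 without knockout replicate 2 and 0.0707 with equal FPKM totals.

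**Figure D2:**
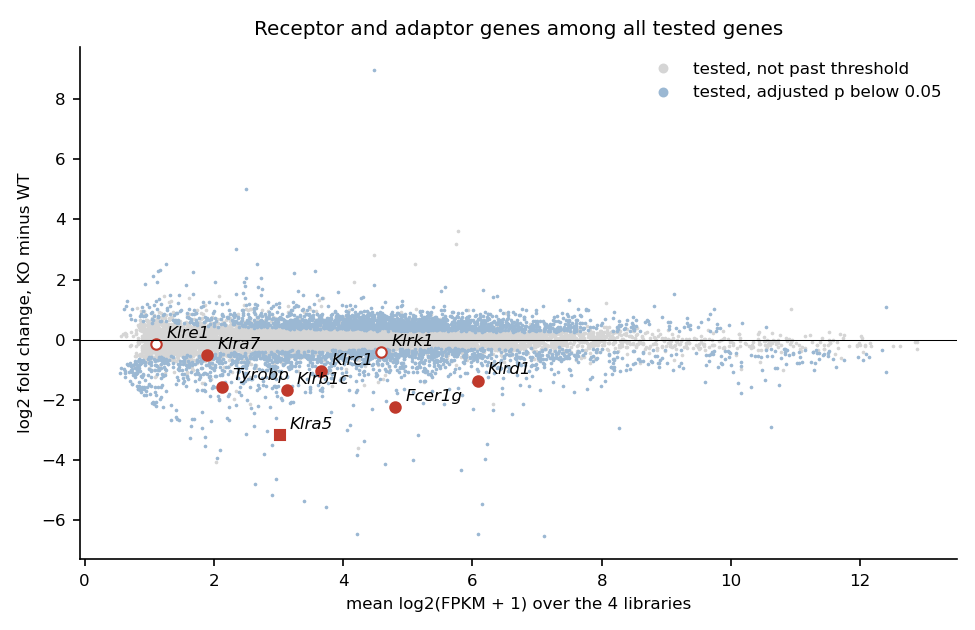
Log2 fold change, knockout minus wild type, against mean log2(FPKM + 1) for the 11947 tested genes, with the 8 tested receptor and adaptor genes as circles (filled where past the threshold) and Klra5 as a square. Of the circles, Fcer1g lies lowest at -2.24, and Klrk1 and Klre1 are open.

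Among the activating receptors, Klrb1c, which encodes NK1.1 and signals through FcR gamma, was at 3.95 and 3.81 FPKM in the knockout libraries and at 14.7 and 14.4 FPKM in the wild-type libraries. The annotated span is chr6:128778485-128789215 on the minus strand (GRCm38). The values were close within each genotype and far apart between them. Its log2 fold change was -1.67 (SE 0.10, limma adjusted p = 0.00126), a 3.75-fold lower mean, and the call held in all 16 alternatives. Of the 50-base windows of its longest transcript, 18.1% also occur in other genes, mostly in the overlapping predicted gene Gm44511 on the same strand. Gm44511 was at most 3.28e-08 FPKM in knockout, against 0.183 and 0.235 FPKM in wild type. The ratio of Klrb1c to Fcer1g was 0.364 and 0.293 in knockout and 0.261 and 0.226 in wild type.

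Klrk1 encodes NKG2D, the receptor for stress-induced ligands on tumour and infected cells, which pairs with DAP10 and, in a mouse splice form, with DAP12. It spans chr6:129610323-129623864 on the minus strand (GRCm38). It was at 18.7 and 20.9 FPKM in the knockout libraries and at 24.1 and 29.9 FPKM in the wild-type libraries. Both knockout values were lower, but the wild-type libraries differed from each other by more than the gap between the nearest libraries of the genotypes. The log2 fold change was -0.42 (SE 0.13) and did not pass (limma adjusted p = 0.0634). Without wild-type replicate 1 it passed (adjusted p = 0.0365), and without the other libraries the adjusted p was up to 0.2775. The ratio of Klrk1 to Klrd1, neighbours in the complex, was 0.479 and 0.481 in knockout and 0.228 and 0.275 in wild type. The ratio of Klrk1 to Hcst was 0.211 and 0.21 in knockout and 0.218 and 0.288 in wild type.

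CD94, encoded by Klrd1, forms dimers with the NKG2 proteins, of which NKG2A (Klrc1) is inhibitory and NKG2C (Klrc2) activating. Klrd1 was at 39.0 and 43.5 FPKM in the knockout libraries and at 106 and 109 FPKM in the wild-type libraries. The gene spans chr6:129591782-129598775 on the plus strand (GRCm38). Its log2 fold change was -1.36 (SE 0.09, limma adjusted p = 0.00159), a 2.60-fold lower mean, and the call held in all 16 alternatives. Relative to Cd3e, Klrd1 stood at 0.263 and 0.306 in knockout and at 0.711 and 0.711 in wild type.

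Klrc1 was at 6.03 and 10.01 FPKM in the knockout libraries and at 16.1 and 18.4 FPKM in the wild-type libraries. Its position is chr6:129666015-129678973 on the minus strand (GRCm38). The knockout libraries differed from each other, and both were below wild type. The log2 fold change was -1.05 (SE 0.22, limma adjusted p = 0.0252). The call was lost without wild-type replicate 1 (adjusted p = 0.0644), wild-type replicate 2 (0.0814) or knockout replicate 1 (0.0662), and with no filter on low genes (0.117). Without knockout replicate 1 the log2 fold change was -0.72. Klrc2 was at 0.513 and 0.389 FPKM in knockout and at 0.973 and 1.24 FPKM in wild type, under the filter. The annotated span is chr6:129647496-129660689 on the minus strand (GRCm38). Its values were lower in both knockout libraries, and its adjusted p was 0.0836 in the limma fit over all 21146 genes. Klrc1 and Klrc2 are close copies, and 40.3% of the 50-base windows of the longest Klrc1 transcript also occur in Klrc2 or Klrc3, so the division of reads among them is uncertain. The ratio of Klrc2 to Klrc1 was 0.085 and 0.0388 in knockout and 0.0604 and 0.0672 in wild type, with wild type inside the knockout range. The ratio of Klrd1 to the sum of Klrc1 and Klrc2 was 5.96 and 4.18 in knockout and 6.2 and 5.55 in wild type, and overlapped.

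Klrg1 encodes an inhibitory receptor for cadherins that marks short-lived effector T cells. It spans chr6:122270596-122282882 on the minus strand (GRCm38). It was at 0.154 and 0.224 FPKM in the knockout libraries and at 0.999 and 1.03 FPKM in the wild-type libraries, a 5.36-fold lower mean. In the length of its longest transcript this is about 4.0 and 6.0 fragments in knockout and 24.9 and 23.9 in wild type. It missed the filter with only 1 library above 1 FPKM, and in the limma fit over all genes its adjusted p was 0.0344. Its log2 fold change was -0.76 with a pseudocount of 1 and -1.96 with a pseudocount of 0.1.

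Klra7 encodes Ly49G, an inhibitory receptor for classical MHC class I. The gene spans chr6:130218605-130233322 on the minus strand (GRCm38). It was at 2.16 and 2.08 FPKM in the knockout libraries and at 3.17 and 3.68 FPKM in the wild-type libraries. The log2 fold change was -0.50 (SE 0.14, limma adjusted p = 0.0451). Leaving out any library ended the call (adjusted p between 0.0613 and 0.184), as did the fits with quantile normalization (0.0709), equal FPKM totals (0.0766) and no filter on low genes (0.121). Of its 50-base windows, 14.7% also occur in the pseudogene Klra13-ps. Klre1 encodes a receptor of the complex that pairs with KLRI proteins in rodents. Its position is chr6:129577905-129585827 on the plus strand (GRCm38). It was at 0.945 and 1.15 FPKM in knockout and 1.04 and 1.55 FPKM in wild type. The genotypes overlapped and it did not pass (log2 fold change -0.16, SE 0.18, limma adjusted p = 0.544).

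Of the 26 other genes in the list of killer lectin-like receptors and their neighbours, 21 were in the table and 3 were tested. Klra5, which encodes the inhibitory receptor Ly49E, changed more than any tested member. It was at 2.01 and 1.41 FPKM in the knockout libraries and at 23.3 and 23.2 FPKM in the wild-type libraries, a 13.6-fold lower mean (log2 fold change -3.17, SE 0.14, limma adjusted p = 0.000604). The ratio of Klra5 to Klra7 was 0.932 and 0.68 in knockout and 7.36 and 6.30 in wild type. Only 0.7% of the 50-base windows of Klra5 occur in other genes. Clec2d, which encodes a ligand of NKR-P1 receptors, fell and is described with the ligands. Cd69, an early activation antigen, was at 39.2 and 36.3 FPKM in knockout and 46.7 and 45.2 FPKM in wild type and did not pass (limma adjusted p = 0.0574).

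Across the complex, from Klrb1a to Klra2, GENCODE M21 lists 24 Klr genes, of which 22 were in the table and 7 were tested. Of the 7, 5 fell (Klrb1c, Klrd1, Klrc1, Klra5 and Klra7) and 2 did not pass (Klre1 and Klrk1). All of the 7 but Klra5 are members already counted above. Of 5 tested genes of other families between the Klr genes, 1 fell (Clec2d) and 4 did not pass. Over all tested genes, 13.0% were called lower. Among the 4 that did not pass were Gabarapl1 with a log2 fold change of 0.03 and BC035044 with 0.47 (limma adjusted p = 0.0619). Predicted genes and RIKEN clones were left out of this count.

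**Figure D3:**
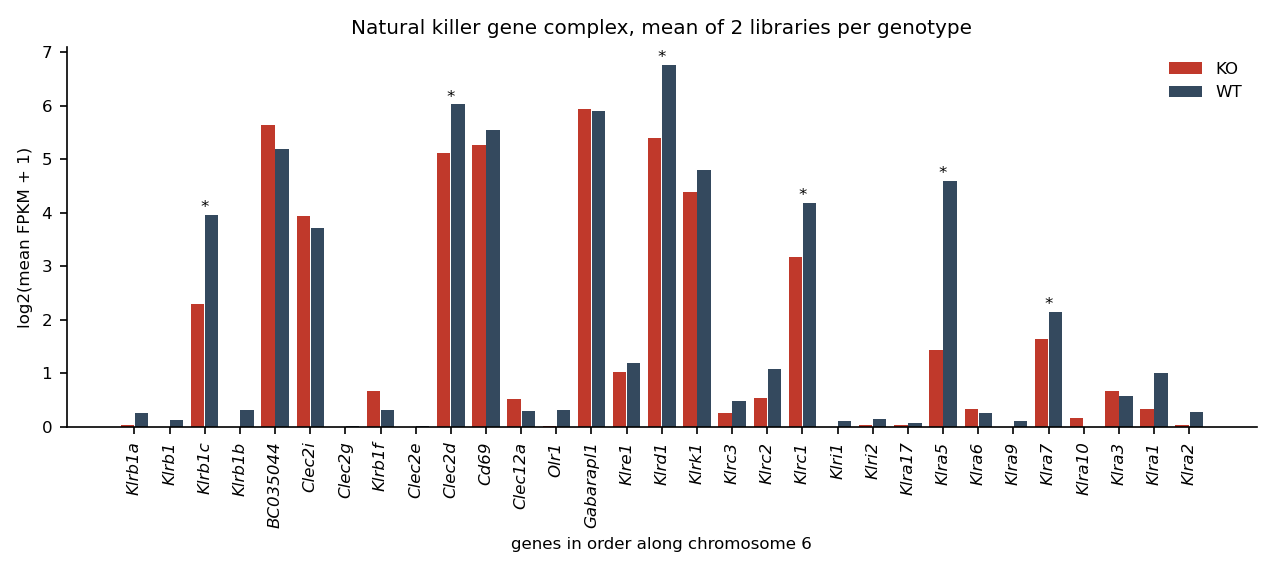
Mean level as log2(mean FPKM + 1) of the genes of the natural killer gene complex that were in the table, in order along chromosome 6, with knockout bars left of wild-type bars (2 libraries each) and stars for genes with limma adjusted p below 0.05. Starred genes are all lower in knockout. Genes without a star lie among them, such as Gabarapl1 (log2 fold change 0.03) and BC035044 (0.47), and many others have very low bars.

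Of 8 tested genes in a list of ligands of killer lectin-like receptors, 3 fell, 0 rose and 5 did not pass, with a median log2 fold change of -0.14. Clec2d and Clec2i stand in it for the wider NKR-P1 family, and neither is assigned here to a member receptor. H2-T23, which encodes Qa-1, the class I ligand of CD94 and NKG2A, was at 99.4 and 99.6 FPKM in the knockout libraries and at 195 and 184 FPKM in the wild-type libraries (log2 fold change -0.92, SE 0.07, limma adjusted p = 0.00282). Clec2d was at 33.0 and 34.6 FPKM in knockout and at 56.2 and 72.2 FPKM in wild type (log2 fold change -0.90, SE 0.13, limma adjusted p = 0.0106), with an adjusted p of 0.0615 without knockout replicate 1. Cdh1, which encodes E-cadherin, a ligand of KLRG1, was at 0.80 and 0.937 FPKM in knockout and at 4.59 and 5.32 FPKM in wild type (log2 fold change -1.67, SE 0.14, limma adjusted p = 0.00318). Cdh1 entered the test through its wild-type values alone. H2-K1, H2-D1 and B2m of classical class I, Clec2i, and the NKG2D ligand gene Ulbp1 did not pass.

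The list of other receptors that pair with FcR gamma or DAP12 gave few values, with 12 of 24 genes in the table and 2 tested. Pilrb1, an activating receptor of DAP12, was at 14.3 and 15.4 FPKM in knockout and 23.1 and 20.0 FPKM in wild type (log2 fold change -0.51, SE 0.11, limma adjusted p = 0.0243). It did not pass without wild-type replicate 1 (adjusted p = 0.0577), knockout replicate 1 (0.152) or knockout replicate 2 (0.0901). Fcgr3, a low-affinity IgG receptor that needs FcR gamma, was at 0.515 and 0.358 FPKM in knockout and at 1.14 and 1.04 FPKM in wild type and did not pass (limma adjusted p = 0.0633), and it entered the test through its wild-type values alone.

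Downstream of the adaptors, 21 of 23 kinase and effector genes were tested, and 4 fell, 1 rose and 16 did not pass, with a median log2 fold change of 0.07. Lat2, which encodes NTAL, an adaptor used by ITAM receptors of NK, B and mast cells, was at 35.3 and 30.9 FPKM in the knockout libraries and at 77.9 and 70.7 FPKM in the wild-type libraries (log2 fold change -1.14, SE 0.10, limma adjusted p = 0.00354). Lyn, a Src-family kinase, was at 1.41 and 2.39 FPKM in knockout and at 3.96 and 4.04 FPKM in wild type (limma adjusted p = 0.0347), and leaving out either wild-type library or knockout replicate 1 ended the call (adjusted p = 0.0896 to 0.145). Sh3bp2, an adaptor that binds Syk-family kinases, also fell, with 27.2 and 24.1 FPKM in knockout and 34.2 and 32.9 FPKM in wild type (limma adjusted p = 0.038), a call that ended whichever library was left out (adjusted p between 0.0624 and 0.223) and with equal FPKM totals (0.127). Vav3, a guanine nucleotide exchange factor, was at 5.29 and 5.89 FPKM in knockout and at 8.69 and 9.50 FPKM in wild type (limma adjusted p = 0.0177), and did not pass without knockout replicate 1 (adjusted p = 0.118) or 2 (0.0691).

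The ITAM kinases differed in level. Zap70, the kinase of the T cell receptor, was at 149 and 131 FPKM in knockout and at 135 and 127 FPKM in wild type, and did not pass (limma adjusted p = 0.471). Syk was low, at 0.219 and 0.268 FPKM in knockout and at 0.744 and 0.888 FPKM in wild type, under the filter. Lck, which phosphorylates ITAMs in T cells, was at 416 and 387 FPKM in knockout and at 327 and 320 FPKM in wild type (log2 fold change 0.31, SE 0.08, limma adjusted p = 0.0377). Leaving out any library ended that call (highest adjusted p 0.274), as did the replicate block (0.0562) and a fit without the mean-variance trend (0.0682).

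Of 8 tested phosphatases and adaptors used by inhibitory receptors, 3 rose, 2 fell and 3 did not pass, with a median log2 fold change of -0.05. Ptpn6 and Ptpn11 encode SHP-1 and SHP-2, which ITIMs recruit. Ptpn6 was at 168 and 173 FPKM in knockout and at 123 and 124 FPKM in wild type (log2 fold change 0.46, SE 0.07, limma adjusted p = 0.0117). Ptpn11 was at 28.5 and 30.2 FPKM in knockout and at 21.5 and 22.96 FPKM in wild type (limma adjusted p = 0.0294). Csk, which restrains Lck, was at 137 and 135 FPKM in knockout and at 107 and 93.8 FPKM in wild type (limma adjusted p = 0.0239). Leaving out a knockout library, whichever of the 2, ended these 3 calls, and the highest adjusted p was 0.0956 for Ptpn6, 0.18 for Ptpn11 and 0.146 for Csk. The Ptpn11 call also ended without wild-type replicate 1 (adjusted p = 0.0645). Sh2d1a, which encodes SAP, the adaptor of SLAM receptors, was at 19.7 and 24.8 FPKM in knockout and at 37.8 and 39.7 FPKM in wild type (limma adjusted p = 0.0124, and 0.0647 without knockout replicate 1). Dok1, which encodes an inhibitory docking protein, fell as well, with 14.3 and 13.9 FPKM in knockout and 22.6 and 17.9 FPKM in wild type (limma adjusted p = 0.0454). That call ended without wild-type replicate 1 (adjusted p = 0.0808), knockout replicate 1 (0.17) or knockout replicate 2 (0.171), and with equal FPKM totals (0.0936).

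**Figure D4:**
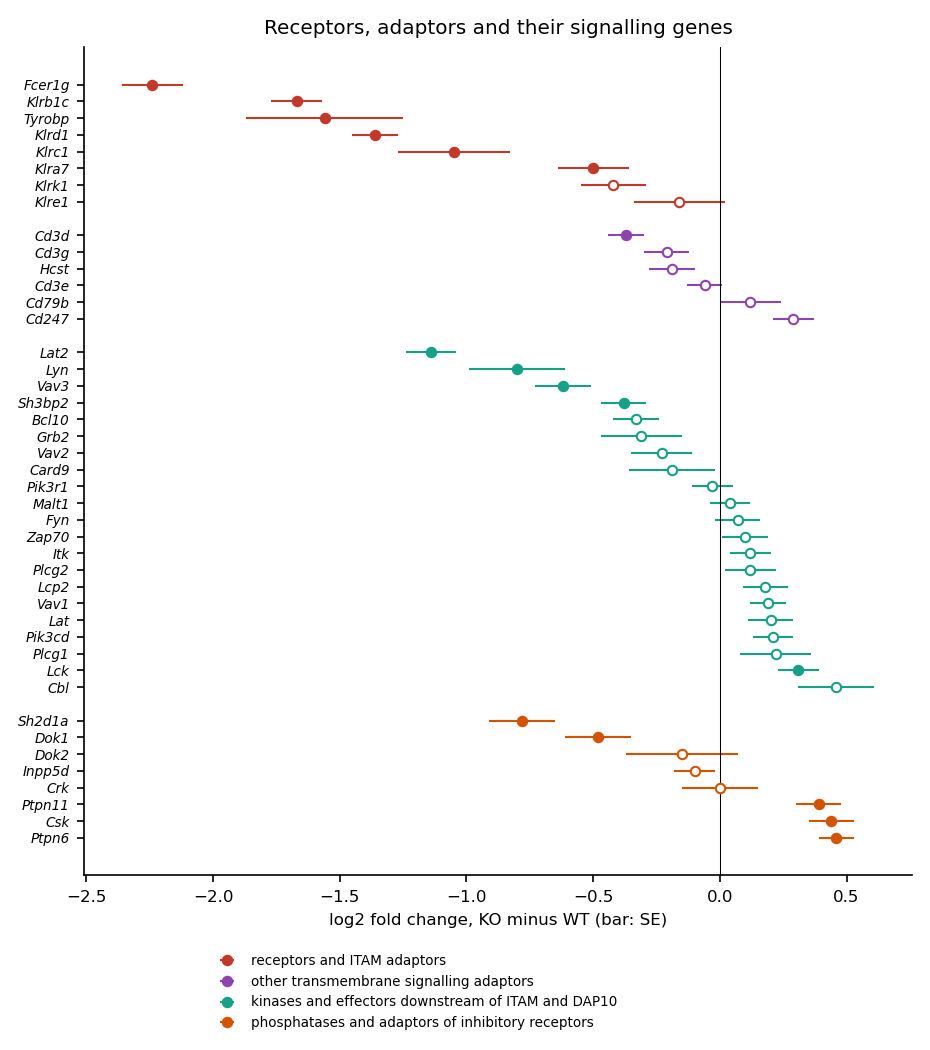
Log2 fold change, knockout minus wild type, with limma SE for the tested receptor and ITAM adaptor genes, other transmembrane adaptors, downstream kinases and effectors, and phosphatases and adaptors of inhibitory receptors (filled points: adjusted p below 0.05). Values run between -2.24 for Fcer1g and 0.46. Ptpn6 at 0.46 is the highest filled point, and Hcst at -0.19 is open.

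Of 17 tested transcription factors and cytokine receptors of NK and innate-like programmes, 2 fell, 2 rose and 13 did not pass, with a median log2 fold change of -0.05. Id2, an inhibitor of E proteins needed for NK cells, was at 249 ± 1.37 FPKM in knockout and at 450 ± 8.93 FPKM in wild type (SD, n = 2 each; limma adjusted p = 0.0031). Gata3 was at 7.11 and 6.28 FPKM in knockout and at 16.3 and 15.8 FPKM in wild type (limma adjusted p = 0.0037). Zfp683, which encodes Hobit, was at 21.4 and 20.3 FPKM in knockout and at 13.5 and 11.4 FPKM in wild type (limma adjusted p = 0.012), and Il12rb2 at 87.6 and 85.3 FPKM in knockout and 53.1 and 61.2 FPKM in wild type (limma adjusted p = 0.0124). Neither rise passed once a knockout library was left out, with a highest adjusted p of 0.0829 for Zfp683 and 0.0883 for Il12rb2. Eomes and Tbx21, the T-box factors of NK cells and cytotoxic T cells, did not pass, Eomes at 74.3 and 78.1 FPKM in knockout and 89.8 and 79.6 FPKM in wild type (limma adjusted p = 0.263), and Tbx21 at 26.6 and 28.0 FPKM in knockout and 25.9 and 23.6 FPKM in wild type (limma adjusted p = 0.302).

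Markers of other cells that carry these genes were measured beside them, and their part in the changes was not tested. The defining NK cell gene Ncr1, which encodes NKp46, was listed at 0 in both knockout libraries and at 0.0767 and 0.0821 FPKM in wild type, which is about 2.0 fragments in each. Of 9 tested NK cell markers, 5 fell and 0 rose, and the summed level of the 14 markers was 1393 and 1381 FPKM in knockout and 3333 and 3426 FPKM in wild type. The genes that fell (Xcl1, Prf1, Ccl5, Gzma and Cd244a) are also expressed by activated CD8 T cells. Gzma, a granule protease, gave the largest share of that sum, at 613 ± 18.5 FPKM in knockout and 2110 ± 92.6 FPKM in wild type (SD, n = 2 each). Sh2d1b1, under the filter, was at 0.117 and 0.0752 FPKM in knockout and 0.590 and 0.606 FPKM in wild type. Its adjusted p was 0.0344 in the limma fit over all 21146 genes. Of the 14 markers, 11 had both knockout values below both wild-type values. Of the 9 tested ones, 7 did, where 31.4% of all tested genes did. Tbx21 was separated in the opposite direction.

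All 6 tested markers of gamma delta and NKT cells changed, with 4 lower and 2 higher in the knockout libraries. Trgv2, a gamma chain variable segment, was at 15.8 and 17.0 FPKM in knockout and at 49.0 and 58.8 FPKM in wild type (limma adjusted p = 0.00194). Tcrg-C2, a gamma chain constant segment, was at 14.3 and 13.6 FPKM in knockout and at 30.8 and 36.3 FPKM in wild type (limma adjusted p = 0.00368), and Tcrg-C4 at 1.66 and 1.25 FPKM in knockout and 4.29 and 5.44 FPKM in wild type (limma adjusted p = 0.00864, and 0.0564 with no filter on low genes). Maf, a transcription factor, rose and was at 9.57 and 9.90 FPKM in knockout and 6.17 and 6.38 FPKM in wild type (limma adjusted p = 0.016), with an adjusted p of 0.104 without knockout replicate 1 or 2. Tcrg-C1 also fell (limma adjusted p = 0.0477) and Cd163l1, a scavenger receptor gene of gamma delta T cells, rose (limma adjusted p = 0.0324). Cd163l1, at 1.78 and 1.34 FPKM in knockout and 0.597 and 0.310 FPKM in wild type, entered the test through its knockout values alone, and its call ended without knockout replicate 1 (adjusted p = 0.176), knockout replicate 2 (0.0847) or wild-type replicate 2 (0.0743). The Tcrg-C1 call ended whichever library was left out (adjusted p between 0.101 and 0.25), under the replicate block (0.0685) and with equal FPKM totals (0.126). The delta constant gene Trdc was at 0.332 and 0.571 FPKM in knockout and at 0.943 and 1.04 FPKM in wild type, and the NKT factor gene Zbtb16 at 0.0549 and 0.0177 FPKM in knockout and 0.501 and 0.368 FPKM in wild type, both under the filter. Rearranged gamma chain transcripts also occur in alpha beta T cells. The summed level of these 13 markers was 53.6 and 52.2 FPKM in knockout and 107 and 123 FPKM in wild type, and gamma chain segments made up most of it. Il17a, another of the 13, was under the filter. It was at 0 in both knockout libraries and at 0.958 and 0.758 FPKM in wild type, about 18.9 and 14.0 fragments.

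Fcer1g and Tyrobp are abundant in myeloid cells. Of 22 myeloid markers, 19 were in the table, 15 of these were below 1 FPKM in all 4 libraries, and 9 were below 0.1 FPKM in all 4. Lyz2 was at 0 and 0.0428 FPKM in knockout and 0 and 0.0491 FPKM in wild type, Adgre1 was at most 0.0449 FPKM in any library, and Csf1r at most 9.15e-09 FPKM. Some other low markers were lower in the knockout libraries, as Fcer1g and Tyrobp were. Spi1, which encodes the myeloid and B cell factor PU.1, was at 0 in both knockout libraries and at 0.627 and 1.04 FPKM in wild type, about 24.0 and 37.2 fragments. Cd14, a co-receptor for lipopolysaccharide, was at 0.0678 and 0 FPKM in knockout and 0.563 and 0.301 FPKM in wild type. Itgam, an integrin chain also found on NK cells, was at 0.246 and 0.226 FPKM in knockout and 0.423 and 0.553 FPKM in wild type. Cybb, a subunit of the phagocyte oxidase, was at 0 in both knockout libraries and at 0.0104 and 0.371 FPKM in wild type. In all, 7 of the 19 had both knockout values below both wild-type values, where 31.4% of all tested genes did. Csf1r and Itgax were among the 7, Csf1r with about 0.0 fragments in each library. Of the 19, 16 were below the filter, so the shares come from unlike levels. Of the 3 tested myeloid markers 1 fell, Cst3, which many cell types express, and Ctss and Cd68 did not pass. Cst3 was at 61.7 and 61.9 FPKM in knockout and at 124 and 115 FPKM in wild type (limma adjusted p = 0.00302). The summed level of the list was 83.0 and 86.7 FPKM in knockout and 154 and 143 FPKM in wild type, and without Cst3 it was 21.4 and 24.8 FPKM in knockout and 29.5 and 27.4 FPKM in wild type. Of 10 mast cell and basophil markers, 5 were in the table, and both tested ones fell. Mcpt8, a basophil protease gene, was at 0.0752 and 0.0727 FPKM in knockout and at 5.51 and 5.88 FPKM in wild type (limma adjusted p = 0.000908) and entered the test through its wild-type values alone. Kit was at 1.40 and 0.633 FPKM in knockout and at 5.58 and 5.05 FPKM in wild type (limma adjusted p = 0.00769, and 0.0566 with no filter on low genes). Fcer1a and Ms4a2, the other chains of the IgE receptor, were on this list but had no row in the table. The summed level of the 5 mast cell and basophil markers in the table was 1.57 and 1.43 FPKM in knockout and 11.6 and 11.8 FPKM in wild type. Mcpt8 and Kit made up most of that sum. Of those under the filter, Cpa3 and Cma1 had a lower mean in knockout and Gata2 a higher one. Of 2 tested B cell markers, Ighm rose, at 93.4 and 86.2 FPKM in knockout and 43.6 and 46.0 FPKM in wild type (limma adjusted p = 0.00318), and Cd79b did not pass.

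The genes most like 3 of the members were found by centring log2(FPKM + 1) per gene over the 4 libraries and taking the smallest root mean square difference, with predicted genes and receptor segments left out. For Fcer1g these were Bcl2a1b, a survival gene with near-identical copies (difference 0.058), Marcks, a membrane-bound actin regulator (0.074), and the chemokine gene Ccl5 (0.08). Bcl2a1b was at 19.6 and 23.6 FPKM in knockout and 90.3 and 105 FPKM in wild type. For Tyrobp they were Ms4a4c (0.051), Oit3 (0.081) and the early response factor gene Egr2 (0.13). For Klrd1 they were Calcoco1 (0.016), Gng11 (0.024), a G protein subunit gene, and Lxn, a carboxypeptidase inhibitor gene (0.03). Lxn was at 8.19 and 9.31 FPKM in knockout and 23.8 and 23.2 FPKM in wild type. Likeness is on the log2(FPKM + 1) scale, where low genes are compressed. Gng11, at 0.136 and 0.262 FPKM in knockout and 1.94 and 2.17 FPKM in wild type, had a 10.3-fold lower mean in knockout, against 2.60-fold for Klrd1. With 4 libraries in 2 groups, likeness of this kind is a description.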

How the data were processed

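RNA was extracted with Trizol and libraries were made with the NEBNext Ultra kit, per the labels' protocols. The authors deposited FPKM values for 21146 genes and 4 libraries, made with HISAT and Cuffnorm on GRCm38 per the submitters' processing notes. The sources used here give no version, annotation, strand setting or scaling option, and fragment counts are not used here. Gene IDs were matched to GENCODE M21 (GRCm38), 21028 with a symbol and 118 without.

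Values were taken as log2(FPKM + 1), which understates changes of low genes. Genes at 1 FPKM or more in at least 2 libraries (11947) were fitted with limma 3.58.1 in R 4.3.3 (trend, empirical Bayes, two-sided), adjusted by Benjamini-Hochberg over all of them at 0.05. The script was tested on simulated data. With 2 libraries against 2, an exact permutation test cannot go below p = 0.333, so calls rest on variance shared across genes, with 2 residual and 3.39 prior degrees of freedom. At an unadjusted p below 0.05, 5157 genes passed.

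The fragment scale came from steps between low values of genes with a single transcript (89.9% to 91.5% of low values within 0.1 of a whole number), and it was chosen to sharpen those same steps. Shared windows of 50 bases were counted in GENCODE transcripts, whatever the read length.

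The 10 members, the 13 other gene lists and the tests were chosen with earlier results of these data known, and some genes stand in several lists. Text names followed a rule: the members, Map4k1, tested genes of the lectin receptor list, the leading genes of each other list by p, 14 genes by name, and the 3 genes nearest to each of 3 members. Csf1r, Adgre1, Trdc, Cd79b, Gabarapl1, BC035044, Runx3, Gm44511, Sh3bp2, Dok1, Tcrg-C1, Cd163l1, Sh2d1b1, Il17a and list members named without values were added after their values were seen. The 16 alternatives changed pseudocount, filter, scaling, variance model, threshold, replicate block or left out a library. Tables and plots used Python 3.11.15, pandas 2.3.3 and matplotlib 3.10.9.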

Additional observations from a re-analysis of the deposited data

How the results depend on the processing

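The call of Fcer1g, Klrb1c and Klrd1 as lower held in all 16 alternatives. Of 8 tested members 6 passed, and 3 passed at a threshold of 0.01. Without each library in turn (the remaining library of that genotype then takes its spread from the opposite genotype) 3 to 5 members passed, of the listed genes beside the members 18 to 38 (39 of 91 with all libraries), and of all genes 579 to 3235, the lowest being 579 without knockout replicate 1 and 945 without knockout replicate 2. All genes past the threshold, 3390, numbered 1231 with no filter on low values and 816 at a threshold of 0.01, where listed genes numbered 22 and 18. Of the 48 genes named by the rule that passed, 22 did not pass with no filter, among them Klrc1, Klra7, Tyrobp, Map4k1, Kit and Tcrg-C4. Dok1, Sh3bp2, Tcrg-C1 and Cd163l1 did not pass there either. More genes were tested without the filter, the second threshold is stricter, and a fit without a library has fewer samples. Equal FPKM totals moved the median log2 fold change of all genes to 0.18 in place of 0.04 and gave 1118 lower and 3475 higher genes, in place of 1551 and 1839, with 5 members lower and 0 higher.

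The directions that turned were all of genes that did not pass or were not tested. Klre1 ranged between -0.32 and 0.00 on the log2 scale over the left-out libraries, at 0.00 without wild-type replicate 2 (limma adjusted p = 0.999). With equal FPKM totals Eomes was at 0.01 and Cd3e at 0.10. Lyz2 was at 0.01 with quantile normalization and between -0.04 and 0.03 over the left-out libraries, at 0.03 without wild-type replicate 2 or knockout replicate 1. The cause was not tested.

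The replicate numbers are not said to pair the libraries. The differences between replicates 1 and 2 had a correlation of -0.032 between the genotypes across genes. With the replicate block 6 members passed, 37 listed genes and 2801 of all genes: Klrk1 passed (limma adjusted p = 0.0425) while Klra7 (0.0756), Lck (0.0562) and Tcrg-C1 (0.0685) did not. Depth limits Tyrobp, Klrg1, Klrc2, Klre1 and Klra7 most, since few fragments lie behind each value.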
